A study of Mus musculus with 24 samples.

Results

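Neural retinas of 3 PRDM13-OE mice given doxycycline (dox) were compared with those of 3 PRDM13-OE mice left untreated. These 6 libraries were taken by genotype, treatment and tissue from the 24 libraries of the series, and the test was fitted over every gene of the count table. Bulk RNA-seq was made from neural retina and eye cup of PRDM13-OE mice and wildtype littermates, with and without dox, 3 mice in each of the 4 groups. PRDM13-OE mice were C57BL/6J animals carrying 1 copy of an insert in the Rosa26 locus. In that insert the ubiquitous EF-1α promoter drives rtTA, and the TRE3G promoter, which rtTA activates when dox is bound, drives HA-tagged human PRDM13. From postnatal day 28 the treated mice drank water with 2 mg/ml dox and 10% sucrose over 72 h, and the untreated mice were given no dox. Whether the untreated mice drank sucrose is not given in the sources used here. Within this comparison the dox water and the induced human gene cannot be told apart, so the same contrast in wildtype retinas (3 dox, 3 untreated, no library shared) is given beside it, with the interaction of genotype and dox. The promoters are active in any cell type, so a value does not say in which retinal cell a transcript changed, and in bulk tissue fewer cells of a type and less RNA per cell cannot be told apart. Human PRDM13 transcript was not analysed here. The study reports some leak of the insert without dox, measured in embryonic PRDM13-OE retinas, so the untreated retinas may not be free of it.

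PRDM13 is a zinc finger protein of the PR domain family that, during retinal development, is made in precursors and subsets of amacrine cells, the inhibitory interneurons of the inner retina. Photoreceptors, the rods and cones, occupy the outer retina. In them light activates an opsin, transducin and a phosphodiesterase in turn, cyclic GMP-gated channels close, and arrestin, kinase and RGS proteins end the signal. CRX, OTX2, NRL and NR2E3 are transcription factors that build and keep the rod program, and loss of many photoreceptor genes causes inherited retinal degeneration.

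Some libraries stood apart before any gene was tested. Reads counted to the processed pseudogene Gm13394 numbered 8651, 8930 and 9733 in the dox-treated PRDM13-OE retinas, 8674 and 8023 in the untreated PRDM13-OE retinas labelled 2 and 3, and 79 in the one labelled 1. All 6 wildtype retinas lay between 44 and 89, and the eye cup of untreated PRDM13-OE mouse 1 held 62, so the library labelled PRDM13-OE untreated 1 sat with the wildtype libraries by this transcript in both tissues, against its label. Every other PRDM13-OE library of either tissue held 3290 or more. Whether this mouse carried the insert was not tested and the labelled group was kept, so the untreated group may hold a retina without the insert. That retina also held more transcripts of skeletal muscle (8 genes, 59.2 CPM summed against 4.88 to 5.71 in the other 5) and of retinal pigment epithelium (13 genes, 472 CPM against 78.2 to 208.5), CPM being counts per 1000000 after TMM scaling. The 3 dox-treated mice were female by Xist and Ddx3y, as were untreated mice 1 and 2, and untreated mouse 3 was male. Totals of the PRDM13-OE retinas ran from 16034800 to 18096209 counts, so depth was alike among them. Those of the wildtype retinas ran from 17046540 to 21513207. Where the number of called genes in a list changes when the untreated retina labelled 1 is left out, that number is given.

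**Figure D1:**
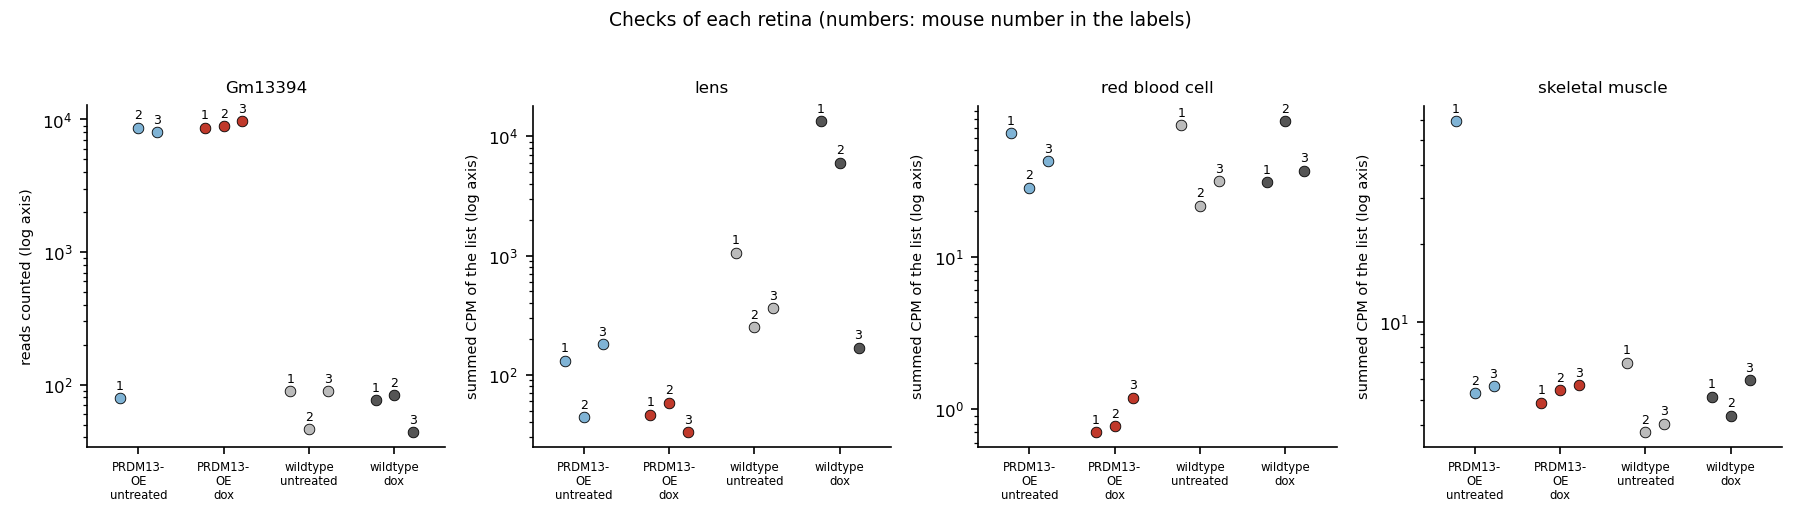
Reads counted to Gm13394 and the summed CPM of lens, red blood cell and skeletal muscle genes in each of the 12 retinas, on log axes, by group (x axis), with each mouse's number beside its point. The untreated PRDM13-OE retina labelled 1 lies at 79 Gm13394 reads with the wildtype retinas, and the 3 dox-treated PRDM13-OE retinas lie between 0.706 and 1.19 CPM of red blood cell genes, below the other 9.

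Of 20603 genes tested, 86 were higher with dox (0.417%) and 128 lower (0.621%) at an adjusted p under 0.05 and a change past 1 on the log2 scale, edgeR's quasi-likelihood test with Benjamini-Hochberg adjustment over all genes, 1.04% in both directions together. A gene that meets both is referred to below as having risen or fallen, and a log2 fold change is followed by its standard error (SE). A change written as N-fold is the ratio of the group means in CPM, which for scarce genes can differ from the fitted log2 value. At an adjusted p under 0.05 alone there were 421 (2.04%) and 610 (2.96%). The lower genes were better measured than the higher ones. Their median level in the higher group was 10.1 CPM against 2.97 CPM, and 67 of 128 against 32 of 86 reached 100 counts in all 3 retinas of whichever group was higher. Protein-coding genes made up 99 of the 128 lower genes (77.3%) and 45 of the 86 higher ones (52.3%), against 75.4% of the genes tested. Long noncoding RNAs accounted for 33 of the higher genes (38.4%) and 27 of the lower ones (21.1%), against 14% of the genes tested. The median of all genes was 0.00. Without the untreated retina labelled 1, 96 genes were higher and 133 lower, of which 67 and 109 were among the genes called with it, and the lower ones then included the Y-linked Ddx3y, Eif2s3y, Kdm5d and Uty. The higher count was lowest without the dox-treated retina labelled 3, at 53.

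**Figure D2:**
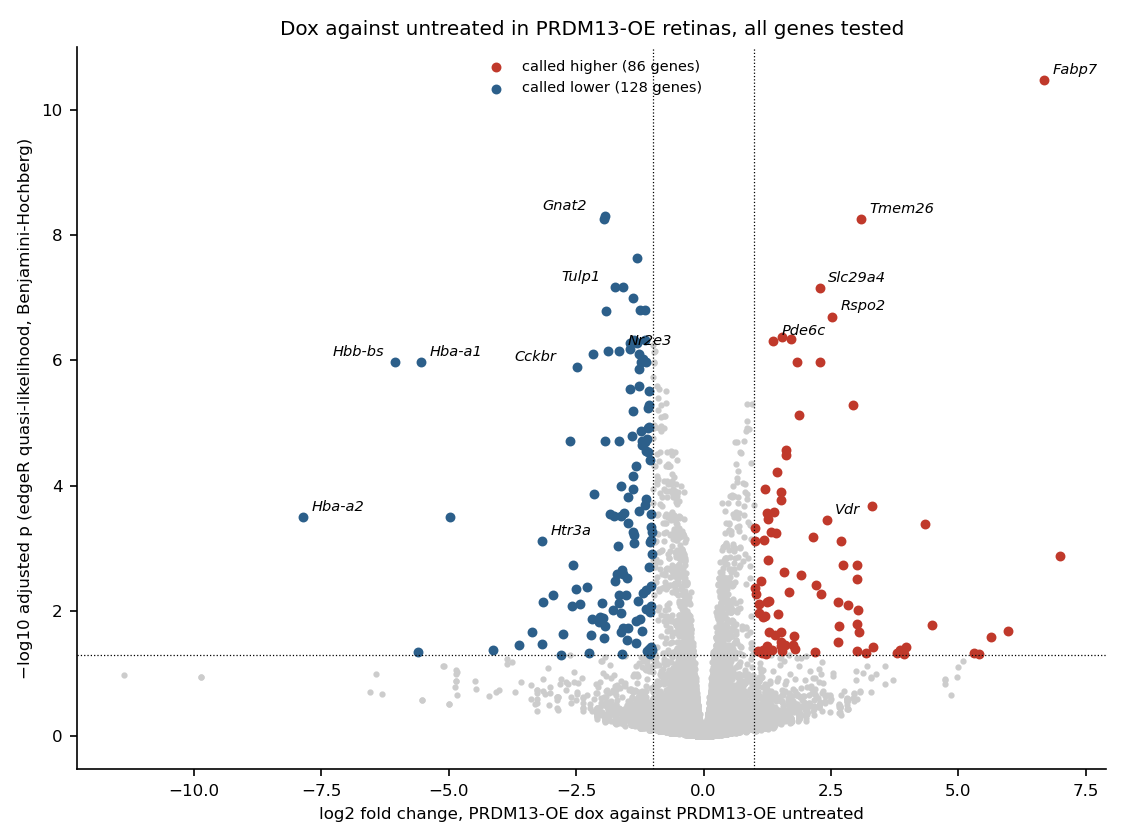
Each of the 20603 genes tested, with the log2 fold change of dox against untreated in PRDM13-OE retinas on the x axis and −log10 of the adjusted p on the y axis. Dotted lines mark the thresholds, red points the 86 genes called higher and blue points the 128 called lower. Fabp7 has the smallest adjusted p of all, and the photoreceptor genes Gnat2 and Tulp1 lie in the upper part of the lower genes.

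Photoreceptor genes held many of the falls. Of 86 such genes tested in 7 lists, 18 fell (20.9%) and 1 rose, and at an adjusted p under 0.05 alone 45 were lower and 2 higher, against the shares of all genes above. Several of the genes called, Gnb3, Nr2e3 and Tulp1 among them, were named by the study from these samples. The share is therefore not independent evidence. The fall was uneven. It took in cone phototransduction, outer segment and regulatory genes, whereas core rod genes shifted less than 2-fold.

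Of the 7 lists the cone list had the lowest median, with 6 of 12 genes lower, 1 higher and a median log2 fold change of -0.88. Gnat2, the α subunit of cone transducin and the cone gene with the smallest p, measured 201, 188 and 197 CPM in the 3 untreated PRDM13-OE retinas and 52.1, 48.1 and 52.6 CPM with dox. It fell 3.84-fold (log2 fold change -1.94, SE 0.063, adjusted p = 5.01e-09), with no overlap between the groups, as for 10% of all genes tested on the lower side and 10.6% on the higher. Gnb3, the β subunit of the same G protein, went from 308, 229 and 297 CPM to 72.7, 76.0 and 74.0 CPM (log2 fold change -1.90, SE 0.096, adjusted p = 1.62e-07). Arr3, the arrestin that quenches cone opsins, went from 79.0, 64.6 and 111 CPM to 22.1, 18.6 and 25.9 CPM (log2 fold change -1.93, SE 0.17, adjusted p = 1.95e-05), the most variable of these genes in untreated retinas but with every dox value below every untreated one. Both cone opsins fell. Opn1mw, the middle-wavelength opsin, measured 177, 198 and 190.2 CPM untreated and 75.7, 54.3 and 84.3 CPM with dox (log2 fold change -1.40, SE 0.12, adjusted p = 1.58e-05), and Opn1sw, the short-wavelength opsin, 607, 570.3 and 519 CPM and 223, 264 and 258 CPM (log2 fold change -1.19, SE 0.075, adjusted p = 9.56e-07). The channel subunit Cnga3 fell by 1.48 on the log2 scale (SE 0.17, adjusted p = 0.000153), while its partner Cngb3 and the phosphodiesterase inhibitory subunit Pde6h changed by -0.54 and -0.56, past the adjusted p but not the fold threshold.

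One cone gene went the other way. Pde6c, the catalytic subunit of the cone phosphodiesterase, measured 93.6, 79.8 and 87.6 CPM in untreated retinas and 203, 238 and 235 CPM with dox, a 2.59-fold rise (log2 fold change 1.37, SE 0.078, adjusted p = 4.85e-07). The 3 dox values were each above 200 CPM and the 3 untreated values below 100 CPM. Among cone transduction genes the transducin subunits Gnat2 and Gnb3 thus fell and this catalytic subunit rose. The inhibitory subunit Pde6h was lower at the adjusted p alone, and Gngt2, of the same list, did not pass the adjusted p. In wildtype retinas the change of Pde6c with dox was log2 fold change -0.25, and the difference between the genotypes was 1.62 on the log2 scale, SE 0.14, adjusted p = 2.67e-06.

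Promoter sequence is shown for the gene with the smallest p among those that rose, Fabp7, and for the 3 photoreceptor genes with the smallest p among those that fell and with 60 or more bases clear of annotated exons, Cdhr1, Tulp1 and Aipl1. The 250 bases before each RefSeq start were taken (RefSeq promoter table of GRCm38.p6, placed in GRCm39 by a unique exact match), and the longest run outside exons of the GENCODE annotation is printed, 5′ to 3′ on the gene's strand. The window of Gnat2 lay wholly inside annotated exons of the gene and is not printed. The runs lie at chr14:36820485-36820554 on the minus strand (Cdhr1), chr17:28584197-28584440 on the minus strand (Tulp1), chr11:71928336-71928585 on the minus strand (Aipl1) and chr10:57660769-57660955 on the plus strand (Fabp7). Capitals mark matches, on either strand, to TAATCC (the CRX and OTX2 core), CAGCTG or CATCTG (E-boxes) or AAGTCA (a core bound by NR2E3), none of which overlapped another.
Cdhr1: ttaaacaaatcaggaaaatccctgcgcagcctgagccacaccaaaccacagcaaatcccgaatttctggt
Tulp1: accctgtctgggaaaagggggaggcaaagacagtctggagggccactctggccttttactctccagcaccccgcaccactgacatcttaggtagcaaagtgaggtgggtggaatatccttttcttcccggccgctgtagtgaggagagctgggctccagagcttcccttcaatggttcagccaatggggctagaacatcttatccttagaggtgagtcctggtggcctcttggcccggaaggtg
Aipl1: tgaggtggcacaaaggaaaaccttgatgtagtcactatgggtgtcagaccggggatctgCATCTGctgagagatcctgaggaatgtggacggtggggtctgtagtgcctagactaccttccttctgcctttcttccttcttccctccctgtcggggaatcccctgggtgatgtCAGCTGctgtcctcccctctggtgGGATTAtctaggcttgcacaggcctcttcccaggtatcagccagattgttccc
Fabp7: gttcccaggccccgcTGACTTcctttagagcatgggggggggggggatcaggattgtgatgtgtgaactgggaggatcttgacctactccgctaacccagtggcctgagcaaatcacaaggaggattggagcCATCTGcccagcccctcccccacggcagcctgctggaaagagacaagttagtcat

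In the whole 250 bases, Gnat2 held 1 TAATCC match 14 to 19 bases before the RefSeq start, and Cdhr1 and Tulp1 held none of the 4 motifs. Aipl1 held TAATCC at 48 to 53, CAGCTG at 72 to 77 and CATCTG at 186 to 191 bases before the start. Fabp7 held 1 CATCTG match at 113 to 118 bases and 1 AAGTCA match at 230 to 235 bases before the start. Of the 17 photoreceptor-list genes that fell and have a promoter in the table, 6 held TAATCC (35.3%: Gnat2, Samd11, Aipl1, Nxnl2, Lrit2 and Guca1a), against 13 of 50 photoreceptor-list genes not called (26%) and 1725 of all 27025 promoters (6.38%). CAGCTG was present in 6 of the 17 (35.3%), 6 of the 50 (12%) and 12.8% of all promoters. AAGTCA was present in 0 of the 17, 3 of the 50 (6%) and 13.1% of all promoters, and CATCTG in 5 of the 17 (29.4%), 8 of the 50 (16%) and 14.5%. Over all called genes with a promoter, TAATCC was present in 11 of 85 that fell (12.9%) and 7 of 51 that rose (13.7%). Of the tested genes with a promoter, 5.49% held it. All of these are matches of 6 letters and not sites of binding.

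**Figure D3:**
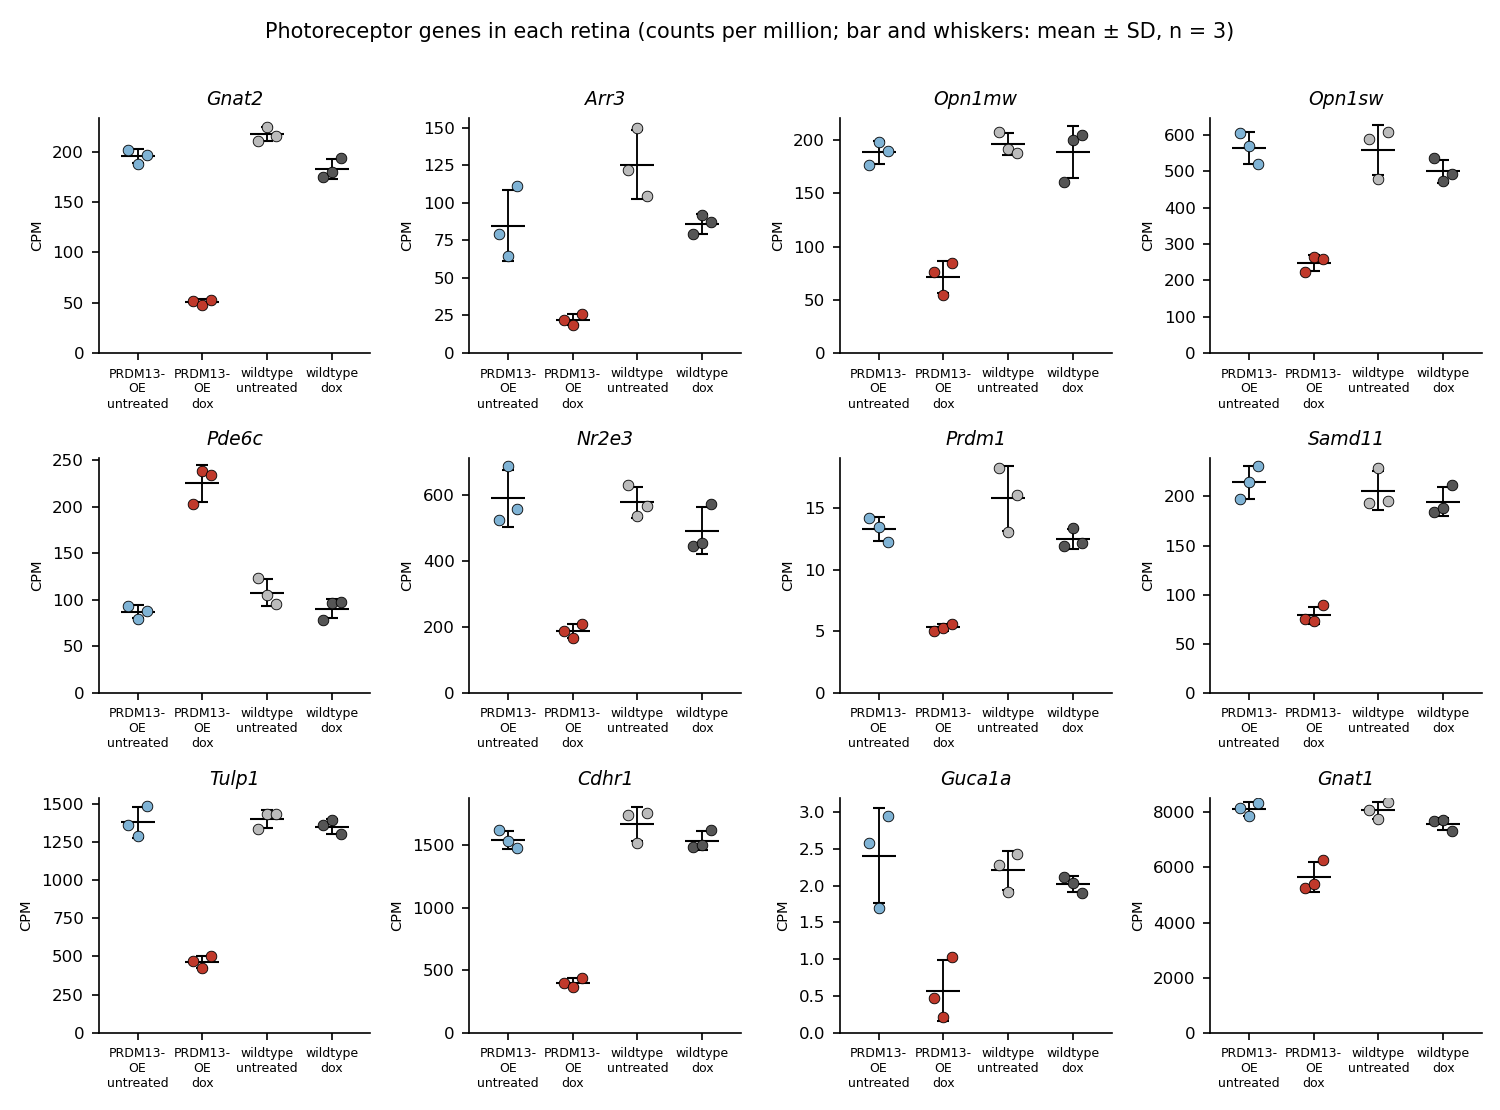
CPM of 12 photoreceptor genes in each of the 12 retinas (points), with the mean and SD of each group of 3 (bar and whiskers), on linear axes from 0. In the dox-treated PRDM13-OE retinas 11 of the 12 genes lie below all other retinas, Gnat1 by the smallest share, and Pde6c lies above them.

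The rod cascade shifted less. Of 11 rod phototransduction genes 0 passed the fold threshold, 7 were lower at an adjusted p under 0.05, all 11 had negative values and the median was -0.24. Gnat1, the rod transducin α subunit, measured 8165, 7854 and 8331 CPM in untreated retinas and 5266, 5409 and 6271 CPM with dox (log2 fold change -0.52, SE 0.06, adjusted p = 0.000148). Every dox value was below every untreated value. Slc24a1, the rod sodium-calcium exchanger, changed by -0.83 (adjusted p = 5.13e-06). The rod phosphodiesterase subunits Pde6a and Pde6b measured -0.06 and -0.06 (adjusted p = 0.740 and 0.638), and both estimates crossed 0 when libraries were scaled by their totals alone.

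Among 11 genes of signal shut-off and calcium feedback, 2 fell and 8 were lower at the adjusted p alone. Rgs9, the GTPase-activating protein that speeds transducin's return to rest in rods and cones, measured 431, 418 and 323 CPM untreated and 131, 144 and 159.8 CPM with dox (log2 fold change -1.43, SE 0.10, adjusted p = 2.83e-06). Guca1a, which encodes the guanylate cyclase activator GCAP1, was counted 42, 29 and 48 times in untreated retinas and 8, 4 and 19 times with dox (log2 fold change -2.05, SE 0.44, adjusted p = 0.0152), too few for a precise size, and the adjusted p rose to 0.0807, 0.0695 and 0.0607 without the retinas labelled dox 1, dox 2 and untreated 3. Grk1, a kinase of the shut-off step, lay just inside the fold threshold at -0.98 (adjusted p = 1.18e-05), and Sag, the rod arrestin, changed by -0.59 (adjusted p = 0.00218).

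Of 15 photoreceptor transcription regulators, 3 fell. Nr2e3, a nuclear receptor that represses cone genes and supports rod genes, measured 524, 687 and 558 CPM in untreated retinas and 187, 167 and 208 CPM with dox, 3.15-fold lower (log2 fold change -1.66, SE 0.10, adjusted p = 7.05e-07). Samd11, a sterile α motif protein of photoreceptor nuclei, went from 198, 215 and 231 CPM to 75.0, 73.1 and 89.1 CPM (log2 fold change -1.44, SE 0.084, adjusted p = 5.17e-07). Prdm1, a PR domain repressor that keeps photoreceptor precursors from the bipolar fate, went from 14.2, 13.4 and 12.2 CPM to 5.06, 5.27 and 5.61 CPM (log2 fold change -1.32, SE 0.13, adjusted p = 4.88e-05), so this scarce transcript fell without overlap as well. The upstream factors did not follow them by the same measure. Nrl, the leucine zipper factor that specifies rods, was lower by a smaller amount (log2 fold change -0.53, SE 0.051, adjusted p = 3.88e-05), as was Mef2d (log2 fold change -0.89, SE 0.07, adjusted p = 6.27e-06). Crx measured 1171, 1162 and 1113 CPM untreated and 1043, 1045 and 1079 CPM with dox (log2 fold change -0.12, SE 0.047, adjusted p = 0.204), and Otx2 0.15 (adjusted p = 0.198), neither past the test.

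All 17 genes tested for outer segment structure and photoreceptor survival had negative values, 5 fell, 12 were lower at the adjusted p alone and the median was -0.67. Cdhr1, a cadherin at the base of the outer segment where new discs form, measured 1622, 1537 and 1478 CPM untreated and 397, 367 and 438 CPM with dox, 3.86-fold lower (log2 fold change -1.95, SE 0.067, adjusted p = 5.46e-09). Tulp1, which carries proteins from the inner to the outer segment, measured 1358, 1286 and 1486 CPM and 467, 424 and 500.1 CPM (log2 fold change -1.57, SE 0.07, adjusted p = 6.83e-08). Aipl1, the chaperone of the phosphodiesterase, measured 928, 940.0 and 933 CPM and 419, 397 and 454 CPM (log2 fold change -1.14, SE 0.057, adjusted p = 1.56e-07). For all 3 genes the lowest untreated value was more than double the highest dox value. Fscn2, an actin bundler of photoreceptors, and Nxnl2, which encodes a thioredoxin-like survival factor, fell by 1.36 and 1.31 on the log2 scale (adjusted p = 4.69e-07 and 5.17e-07). Rp1, an axonemal microtubule protein, lay at -0.99 (adjusted p = 5.73e-07), and the disc rim proteins Prph2 and Rom1 at -0.39 and -0.076 (adjusted p = 0.000127 and 0.437), so the rim proteins changed by less than the disc base cadherin.

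At the photoreceptor terminal, 1 of 15 ribbon synapse genes fell, Lrit2, a leucine-rich repeat membrane protein, from 240.0, 262 and 267 CPM to 116, 109 and 123 CPM (log2 fold change -1.15, SE 0.065, adjusted p = 4.74e-07), and 2 fell without the untreated retina labelled 1, with Elfn1 added. Elfn1, which recruits glutamate receptors across the rod synapse, was at -0.98 (adjusted p = 1.16e-05) and Egflam, which encodes pikachurin, at -0.78 (adjusted p = 7.71e-06). Of 6 visual cycle genes of photoreceptors, Rdh8, the outer segment retinol dehydrogenase, fell by 1.26 on the log2 scale (SE 0.084, adjusted p = 1.37e-06), while Rdh11 was 1.33-fold higher (adjusted p = 0.00363), short of the fold threshold.

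Mouse Prdm13 itself measured 51.6, 54.7 and 47.7 CPM in untreated PRDM13-OE retinas and 58.2, 60.2 and 52.99 CPM with dox (log2 fold change 0.15, SE 0.077, adjusted p = 0.378), an overlap of the groups and no call. Ptf1a, which acts above Prdm13 in development, had 3 counts over the PRDM13-OE retinas and was not tested. Of 17 amacrine transcription factors tested, 1 fell, Mef2c, from 112, 86.3 and 85.7 CPM to 38.5, 38.0 and 44.7 CPM (log2 fold change -1.23, SE 0.11, adjusted p = 1.33e-05), and Ebf3, a factor of a Prdm13-lineage amacrine subset, was at -0.16 (adjusted p = 0.315). Among 21 transmitter and neuropeptide genes 0 were called in either direction (1 was lower without the untreated retina labelled 1, Crh, a neuropeptide gene, at -1.64), 2 were lower at the adjusted p alone, and Gad1 and Gad2, the GABA-synthesising enzymes, were at -0.25 and -0.21 (adjusted p = 0.0192 and 0.242). Neither Th, which makes dopamine, nor the neuropeptide gene Npy passed the test (-0.35 and -0.26, adjusted p = 0.472 and 0.631).

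A further 11 genes were taken from those the study names, which it chose on these samples, so their direction is not independent evidence. Of these, 3 fell and 2 rose. Htr3a, a subunit of the ion channel gated by serotonin, was counted 92, 96 and 73 times in untreated retinas and 16, 1 and 14 times with dox, a fall of 8.99-fold (log2 fold change -3.17, SE 0.45, adjusted p = 0.000775). Cckbr, a cholecystokinin receptor, measured 15.9, 18.6 and 15.1 CPM untreated and 3.59, 2.86 and 2.48 CPM with dox (log2 fold change -2.48, SE 0.16, adjusted p = 1.26e-06). Gulo, the last enzyme of vitamin C synthesis, measured 23.7, 28.4 and 27.0 CPM and 7.00, 5.602 and 5.01 CPM (log2 fold change -2.17, SE 0.13, adjusted p = 7.93e-07). These 3 falls exceeded 4-fold and were free of overlap, larger than those of the cone genes though in scarcer transcripts. Vdr, the vitamin D receptor, was counted 13, 14 and 8 times untreated and 75, 50 and 79 times with dox (log2 fold change 2.42, SE 0.31, adjusted p = 0.000358), and Robo3, an axon guidance receptor, 7, 21 and 14 and 37, 48 and 46 times (log2 fold change 1.52, SE 0.34, adjusted p = 0.0215), a call that was lost without dox 1, dox 2, dox 3 or untreated 3 (adjusted p = 0.0534, 0.102, 0.0820 and 0.0606). Ptn, a heparin-binding growth factor, was 1.29-fold higher (adjusted p = 0.0303). Chrnb4 was at -0.99 (adjusted p = 0.0741) and was called, at -1.25, without untreated 2 (adjusted p = 0.00757). The transporter gene Slc6a13, of the transmitter list, was at -1.19 (adjusted p = 0.320). It was at -0.12 without untreated 1 and was called at -1.69 without untreated 2 (adjusted p = 0.932 and 0.00482). Slc39a12, a zinc transporter gene of neither list, was at -0.70 (adjusted p = 0.442). Igfbp7, Abi3bp and Tpm2 were at -0.26, -0.23 and -0.68 (adjusted p = 0.474, 0.876 and 0.629), and the last 2 turned positive without the untreated retina labelled 1, at 0.52 and 0.61. Abi3bp was also positive, at 0.043, without dox 1.

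The other inner retinal classes held no gene past the fold threshold. Bipolar cells, which receive the photoreceptor signal, had 5 of 15 genes lower at the adjusted p alone and 1 higher. Grm6 and Trpm1, the receptor and the channel of ON bipolar dendrites, measured -0.54 and -0.47 (adjusted p = 0.00225 and 0.000534). Cabp5, a calcium-binding protein of bipolar cells, measured 83.5, 78.4 and 75.0 CPM untreated and 145, 147 and 136 CPM with dox (log2 fold change 0.85, SE 0.065, adjusted p = 4.87e-06), opposite in direction to them. Of 6 horizontal cell genes 1, Calb1, passed the adjusted p (-0.33), and of 13 ganglion cell genes 0 did, with values between -0.26 and 0.11.

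**Figure D4:**
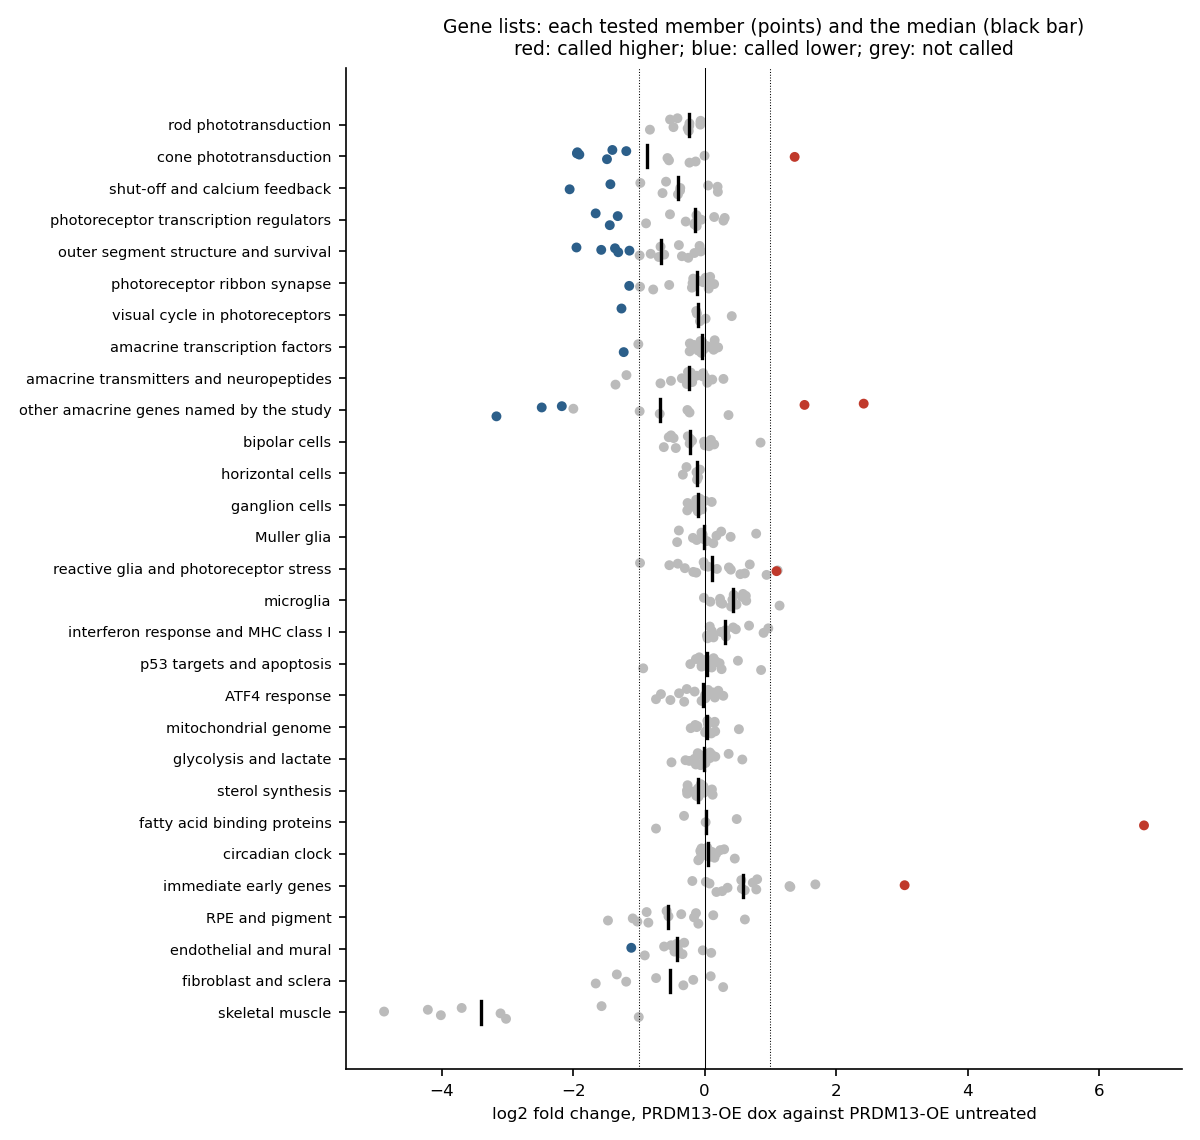
The log2 fold change of dox against untreated in PRDM13-OE retinas (x axis) for each tested gene of 29 lists (rows), with the list median as a black bar. Red and blue points are genes called higher and lower, dotted lines mark 1 and -1, and the lens, red blood cell and carrier and sex marker lists are left out. The medians of cone phototransduction (-0.88) and of outer segment genes (-0.67) lie left of 0, and that of skeletal muscle (-3.40) rests on the untreated retina labelled 1.

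Fabp7, the brain-type fatty acid binding protein known from radial glia, was the gene with the largest fold change among those that rose with 100 or more counts in each dox-treated retina. It was counted 13, 23 and 12 times in the untreated PRDM13-OE retinas and 1767, 1849 and 1763 times with dox, 0.797, 1.34 and 0.738 CPM against 104, 102 and 95.04 CPM. The rise was 104-fold (log2 fold change 6.69, SE 0.14, adjusted p = 3.30e-11), and each dox value was close to the other 2. In wildtype retinas its change with dox was log2 fold change -0.57 (adjusted p = 0.766). Of the other 4 family members tested, Fabp12, a retinal form, was at -0.74 (adjusted p = 0.000278) and the rest did not pass the adjusted p.

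Müller cells, the glia that span the retina, had 0 of 13 genes past the fold threshold. At the adjusted p alone 3 were higher, Aqp4, a water channel of their endfeet, at 0.78, Sox2 at 0.40 and Glul, glutamine synthetase, at 0.25, and 2 were lower, Rlbp1, a retinoid-binding protein, at -0.39 and Hes1, a Notch target, at -0.42. Of 18 genes of reactive glia and photoreceptor stress, 1 rose, Lcn2, a secreted lipocalin, from 4.66, 2.45 and 3.51 CPM to 8.77, 7.14 and 6.79 CPM (log2 fold change 1.09, SE 0.22, adjusted p = 0.0109), and 3 genes did so without the untreated retina labelled 1, A2m and C4b besides. The Lcn2 call was lost without dox 1 (adjusted p = 0.0718) and without untreated 2 (log2 fold change 0.89). Gfap, the intermediate filament used as the usual sign of gliosis, measured 47.9, 37.7 and 34.4 CPM and 30.4, 52.0 and 36.4 CPM, overlapping and without a call (log2 fold change -0.014, SE 0.17, adjusted p = 0.981, a sign that turned with scaling by library totals, 0.051, and without dox 1, dox 3 or untreated 1), and Fgf2 was 1.61-fold higher (adjusted p = 0.00200), short of the fold threshold.

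Inflammation and death lists held no call. Microglial genes were positive in 13 of 14 with a median of 0.43, and C1qc and Ctss passed the adjusted p (0.63 and 0.40). Interferon and MHC class I genes were positive in 15 of 15 with a median of 0.31, and Irf7, an interferon regulatory factor, was 1.96-fold higher (adjusted p = 0.000453), past the fold threshold with library totals and without dox 3 (log2 fold changes 1.03 and 1.08). In wildtype retinas the medians of these 2 lists with dox were 0.23 and 0.20. Among 16 p53 target and apoptosis genes 0 were called (1 was lower without the untreated retina labelled 1), and among 16 ATF4 response genes 1 was higher and 2 lower at the adjusted p alone, Psat1 of serine synthesis at -0.66. Of 19 glycolysis genes Hk2 was higher and Ldha and Pgk1 lower at the adjusted p alone, Ldha at -0.50. The 13 mitochondrially encoded genes, 13 sterol synthesis genes and 16 circadian clock genes had 0 past the adjusted p. Immediate early genes, which respond to stimulation within minutes, had a median of 0.59 and 1 call, Egr2, counted 4, 2 and 2 times untreated and 33, 6 and 35 times with dox (log2 fold change 3.04, SE 0.69, adjusted p = 0.0213), which was lost without dox 1, dox 3, untreated 2 or untreated 3 (adjusted p from 0.0692 to 0.107). Egr1 missed the threshold (109, 20.6 and 46.7 CPM against 297, 129 and 141 CPM, log2 fold change 1.69, SE 0.45, adjusted p = 0.0505), but was called with library totals (1.75, adjusted p = 0.0381) and with the mouse number as a block (1.86, adjusted p = 6.85e-05), and 5 genes of this list rose without the untreated retina labelled 1, with Egr1, Egr4, Fos and Nr4a1 added.

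Red blood cell genes fell, and 1 vessel gene. All 5 red blood cell genes fell, 4 of them also without the untreated retina labelled 1. The other, Alas2 of heme synthesis, had an adjusted p of 0.0214 that rose to between 0.0548 and 0.118 without any single library other than untreated 2. Hbb-bs, an adult β-globin, was counted 502, 233 and 324 times in untreated PRDM13-OE retinas and 2, 8 and 7 times with dox, and Hba-a1, an α-globin, 407, 193 and 273 times and 6, 5 and 9 times (log2 fold changes -6.05 and -5.54, both adjusted p = 1.05e-06). Hba-a2 was counted 0 times in all 3 dox-treated retinas against 31, 18 and 34, at least 10.0-fold lower taking 3 counts per library as the floor, and the near-identical globin copies can share reads. The summed level of the list was 0.706, 0.769 and 1.19 CPM with dox and 64.5, 28.4 and 42.6 CPM without, and all 6 wildtype retinas, dox-treated ones included, lay between 21.6 and 77.8 CPM. Of 11 endothelial and mural genes 1 fell and 4 were lower at the adjusted p alone. Kdr, the main receptor of vascular endothelial growth factor, measured 245, 197 and 202 CPM untreated and 113, 92.1 and 92.0 CPM with dox (log2 fold change -1.11, SE 0.098, adjusted p = 1.78e-05). Cldn5, Tek and Flt1 were at -0.51, -0.62 and -0.40 (adjusted p = 0.0153, 0.0247 and 0.0119). How much blood was left in each retina at dissection was not measured, and its part in these values was not tested.

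Lens genes, markers of a neighbouring tissue, varied most among wildtype retinas, where their sum ran from 169 to 13449 CPM. In PRDM13-OE retinas the sum was 46.2, 58.3 and 33.2 CPM with dox and 132, 43.9 and 179 CPM without. Cryba4 and Crygb were called lower with overlapping groups (60, 5 and 78 counts against 7, 8 and 2, and 58, 10 and 131 against 12, 16 and 3), and both calls were lost when any 1 retina other than untreated 2 was left out, at like sizes without untreated 1 (-2.97 and -2.88, adjusted p = 0.0620 and 0.0548). By DESeq2 neither was called (adjusted p = 0.0651 and 0.120). Crybb3 and Cryaa were at -1.996 and -1.74 (adjusted p = 0.0628 and 0.325), and both were called without untreated 2, at -2.47 and -2.31 (adjusted p = 0.000446 and 0.00853). Crybb3 was at -1.32 without untreated 3. Pigment epithelium, fibroblast and skeletal muscle lists had 0 calls in 13, 8 and 8 genes, and without the untreated retina labelled 1 the pigment epithelium list had 1, Lrat, higher at 1.30. Their medians of -0.55, -0.53 and -3.40 became 0.23, 0.69 and -0.11 without the untreated retina labelled 1, and their part in other values was not tested.

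The 10 largest rises among genes without overlap and with 10 or more counts in each dox-treated retina included Fabp7 and Tmem26, a membrane protein counted 91, 108 and 75 times untreated and 784, 847 and 898 times with dox (log2 fold change 3.09, SE 0.11, adjusted p = 5.46e-09). Ppef1, a phosphatase with calcium-binding EF hands, was counted 18, 24 and 13 and 142, 141 and 173 times (log2 fold change 2.93, SE 0.22, adjusted p = 5.13e-06). AY702102 was counted 0 times in all 3 untreated retinas and 18, 17 and 14 times with dox, at least 5.05-fold higher by the same floor. The other 6, Gm45889, Hmga2-ps1, Insl6, Gm44541, Ccdc175 and Gm7135, held 11 to 79 counts in the dox-treated libraries and 0 to 12 in the untreated ones, and Hmga2-ps1 is a pseudogene that can share reads with its parent. The 10 largest falls were the 4 globins, Htr3a and 5 other genes, of which Ccl9, a chemokine, was counted 85, 82 and 83 times untreated and 13, 14 and 17 times with dox (log2 fold change -2.61, SE 0.23, adjusted p = 1.91e-05). Tmprss5, a transmembrane serine protease, was counted 20, 17 and 37 and 4, 5 and 1 times (log2 fold change -2.96, SE 0.54, adjusted p = 0.00549), and Gm15169, Gm38389 and Gm39464 had at most 20 counts in any library. The Gm15169 call was lost without dox 1, dox 2 or untreated 3 (adjusted p from 0.0565 to 0.118).

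Outside these rules, several genes were picked after their values were seen, for small p and high counts. Slc29a4, a monoamine transporter of the plasma membrane, measured 26.6, 34.3 and 33.0 CPM untreated and 138, 171 and 147 CPM with dox (log2 fold change 2.28, SE 0.10, adjusted p = 7.01e-08). Rspo2, a secreted enhancer of Wnt signalling, measured 3.74, 3.74 and 4.86 CPM and 24.4, 24.4 and 22.5 CPM (log2 fold change 2.53, SE 0.13, adjusted p = 1.99e-07). Prtg, Gzmm, Gckr and Gnat3, the last a taste transducin, rose 4.87-, 3.31-, 2.92- and 6.87-fold. On the lower side, Slc38a3, a glutamine transporter, measured 628, 598 and 644 CPM untreated and 253, 255 and 251 CPM with dox (log2 fold change -1.30, SE 0.052, adjusted p = 2.31e-08), and Rtbdn, a riboflavin-binding protein released by photoreceptors, 708, 613 and 699 CPM and 253, 251 and 273 CPM (log2 fold change -1.38, SE 0.065, adjusted p = 9.95e-08). Padi2, Ptp4a3 and Sox8 fell by 1.74, 1.25 and 1.87 on the log2 scale.

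Of 1174 tested genes with a transcription factor family in the deposited annotation, 5 rose (0.426%) and 8 fell (0.681%), near the 0.417% and 0.621% of all genes tested. The falls were Nr2e3, Prdm1, Mef2c, Tulp1 and Sox8, given above, Hes5 (log2 fold change -1.28, SE 0.24, adjusted p = 0.00701), Ahrr, the repressor of the aryl hydrocarbon receptor (-1.02, and -0.96 and -0.91 without dox 1 and untreated 1), and Zfp36l2, which encodes an RNA-binding protein (log2 fold change -1.23, SE 0.079, adjusted p = 1.05e-06). The rises were Vdr, Egr2, Gsc2 (1.26), Gata1 and Pou5f1. Gata1 was counted 0, 0 and 0 times untreated and 10, 4 and 10 times with dox, and Pou5f1 0, 0 and 0 and 6, 7 and 3 times, so both rest on few reads. The Gata1 call was lost without dox 1 or dox 3 (adjusted p = 0.0833 and 0.0831), and the Pou5f1 call in all 5 such fits that tested it (0.0709 to 0.147), its reads falling below the count filter without dox 2.

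In wildtype retinas the same dox course gave 1 gene higher and 0 lower of 20631 tested (0.00485% and 0%), by edgeR's quasi-likelihood test, with 1922 genes at an unadjusted p under 0.05 and 22 higher and 4 lower by DESeq2. Without the wildtype dox retina labelled 3, 122 genes were higher and 4 lower. The 1 gene called with all 6 wildtype retinas was Slc6a13, a GABA and taurine transporter (log2 fold change 1.35, adjusted p = 0.0257), and its call was lost without wildtype dox 1, untreated 2 or untreated 3. Of the 214 genes called in PRDM13-OE retinas 0 were called there, but with 1 gene called in all this count does not compare the genotypes. Dox-treated wildtype retinas also differed more from one another than the PRDM13-OE ones. Chi-square per degree of freedom of each pair was 12.4 to 20.6 against 3.80 to 5.74. The genes called higher in PRDM13-OE retinas had a median of 1.74 in them and of -0.18 in wildtype retinas (79 with a value), and those called lower had medians of -1.46 and -0.07 (128). The wildtype change had the same sign for 106 of 207 genes. It passed 1 on the log2 scale in the same direction for 5 genes, Egr2, Cyp4f39, Gm36677, Gm42948 and Gm48905, and in the opposite direction for 9.

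**Figure D5:**
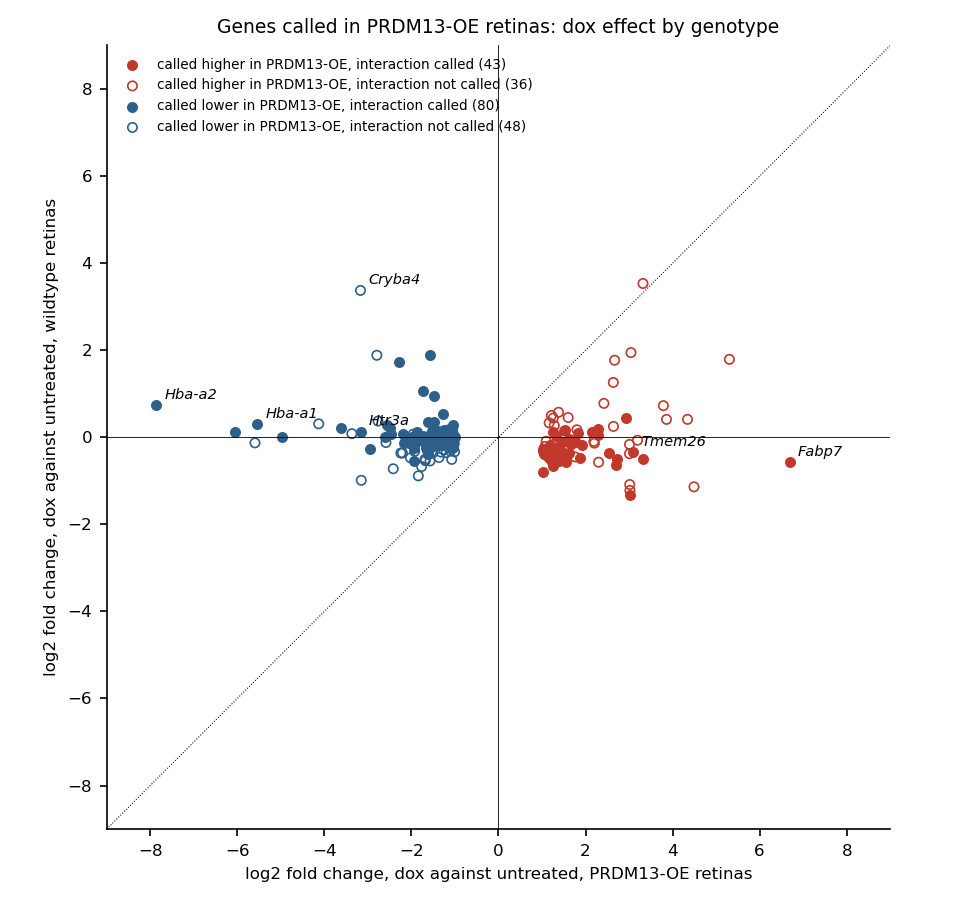
The log2 fold change of dox against untreated in PRDM13-OE retinas (x axis) and in wildtype retinas (y axis) for the 207 genes called in PRDM13-OE retinas that have a wildtype value. Filled points also passed the interaction test, and the dotted diagonal marks an equal change. Most points lie near 0 on the wildtype axis, and Cryba4 stands above it at 3.37.

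The interaction test took the dox effect in PRDM13-OE minus that in wildtype retinas over 12 libraries. It called 80 genes higher (0.355%) and 116 lower (0.515%) of 22538, and these share libraries with the comparison above. The higher count was 48 without the PRDM13-OE dox retina labelled 2, and the lower count 190 without the wildtype dox retina labelled 3. Among its genes, 43 of the 86 that rose and 80 of the 128 that fell were called in the same direction. Of the 18 photoreceptor-list genes that fell 16 were called, the others being Prdm1 (-0.98 on the log2 scale, SE 0.18, adjusted p = 0.00428) and Rdh8 (-0.98 on the log2 scale, SE 0.11, adjusted p = 6.09e-05), which missed the size of 1. Gnat2 differed by -1.69 on the log2 scale, SE 0.084, adjusted p = 8.32e-09, Tulp1 by -1.52 on the log2 scale, SE 0.089, adjusted p = 2.59e-08 and Nr2e3 by -1.42 on the log2 scale, SE 0.15, adjusted p = 2.41e-05. Mef2c, Cckbr, Gulo and Htr3a were called too, whereas Vdr (1.64 on the log2 scale, SE 0.50, adjusted p = 0.104) and Robo3 (1.37 on the log2 scale, SE 0.62, adjusted p = 0.315) were not, so a difference between genotypes was not shown for them.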

How the data were processed

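Bulk, poly-A RNA-seq libraries of mouse neural retina and eye cup were processed by the authors into a gene table (GRCm39; HISAT2 and CASAVA are named in the submitters' processing notes, and the counting tool, annotation version and strand setting are not given in the sources used here). The deposited table holds raw read counts, which were used, and FPKM values made by the authors, which were not. Without a stated strand setting, antisense and overlapping genes cannot be separated. Genes with at least 10 counts over the libraries of a fit were tested with edgeR 4.0.16 (R 4.3.3) by quasi-likelihood, TMM scaling and Benjamini-Hochberg adjustment, on PRDM13-OE retinas, on wildtype retinas and on all 12 for the interaction. Genes were called past 1 on the log2 scale where the adjusted p was below 0.05. SE is the log2 fold change over the square root of F. Each retina is a separate mouse, 3 per group. The code was tested on simulated counts. Alternatives were DESeq2 1.42.0, other scaling, filters, a replicate block and leaving out each retina. Named genes were list members called with the smallest p (up to 6 per list), list heads, the 10 largest rises and falls without overlap and at 10 or more counts in each retina of the higher group, and genes the study names. Genes and lists were chosen with earlier results of these data known. Figures were drawn with matplotlib 3.10.9. Results for some genes that these rules name are not reported here.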

Additional observations from a re-analysis of the deposited data

Results flagged for a closer look

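For 51 named genes the dox effect in PRDM13-OE retinas differed from that in wildtype retinas by the interaction test (adjusted p under 0.05 and past 1 on the log2 scale). Each value below is the PRDM13-OE effect minus the wildtype effect, on the log2 scale, and the test shares its PRDM13-OE libraries with the comparison above. Of cone phototransduction genes, Pde6c differed by 1.62, Opn1sw by -1.03, Opn1mw by -1.35, Arr3 by -1.39, Cnga3 by -1.49, Gnat2 by -1.69 and Gnb3 by -1.81. Among other photoreceptor genes, Elfn1 differed by -1.03, Lrit2 by -1.07, Aipl1 by -1.10, Nxnl2 by -1.20, Fscn2 by -1.22, Rgs9 by -1.33, Samd11 by -1.36, Rtbdn by -1.36, Nr2e3 by -1.42, Tulp1 by -1.52, Cdhr1 by -1.82 and Guca1a by -1.92. For genes named by the study or listed for amacrine cells, the values were -1.11 for Mef2c, -1.33 for Chrnb4, -2.04 for Gulo, -2.45 for Igfbp7, -2.53 for Slc6a13, -2.55 for Cckbr and -3.30 for Htr3a. Those of Igfbp7 and Slc6a13 rest on a wildtype change (2.20 and 1.35) larger than the PRDM13-OE one (-0.26 and -1.19), and in wildtype retinas Igfbp7 was not called and the call of Slc6a13 was lost in 3 of 6 fits that left out 1 retina. In vessel, blood and lens genes the difference was -1.24 for Kdr, -4.09 for Cryab, -5.00 for Hbb-bt, -5.85 for Hba-a1, -6.18 for Hbb-bs and -8.66 for Hba-a2, the last against 3 libraries at 0 counts, so its size is no bound. Cryab moved with the lens sum of wildtype retinas (169 to 13449 CPM), whose part in it was not tested. Among the remaining genes, the difference was positive for Fabp7 (7.27), Insl6 (4.36), Hmga2-ps1 (3.81), Tmem26 (3.44), Gnat3 (3.24), Rspo2 (2.90), Ppef1 (2.49), Slc29a4 (2.22), Prtg (2.10), Gckr (1.95) and Gzmm (1.85). It was negative for Slc38a3 (-1.12), Zfp36l2 (-1.21), Ptp4a3 (-1.22), Padi2 (-1.77), Hes5 (-1.81), Sox8 (-1.99), Ccl9 (-2.63) and Tmprss5 (-2.70).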

How the results depend on the processing

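Of 67 named genes that passed the test, 56 kept direction and call under each alternative that gave a value and 11 lost the call under at least 1 (Ahrr, Alas2, Cryba4, Crygb, Egr2, Gata1, Gm15169, Guca1a, Lcn2, Pou5f1 and Robo3), while 0 reversed. Genes short of a call that gained one under at least 1 alternative, among those followed through all of them, were Rp1, Grk1, Elfn1, Slc6a13, Chrnb4, Crybb3, Cryaa, Irf7, Egr1 and Fos. Crh, A2m, C4b, Egr4, Nr4a1, Lrat, Ddx3y, Eif2s3y, Kdm5d and Uty gained one without the untreated retina labelled 1. They were not followed through the other alternatives. The count of genes higher and lower with dox in PRDM13-OE retinas (86 and 128) stayed within 1.5 times under DESeq2 (65 and 122), scaling by library totals (104 and 109), robust fitting, a fit of all 12 retinas and filterByExpr. It came to 209 lower without a count filter, and the cause was not tested. It came to 421 and 610 without the fold threshold and to 37 and 28 with a log2 threshold of 2, which follow from how those 2 rules are built. Leaving out 1 retina gave 53 to 96 higher and 101 to 175 lower. In wildtype retinas (1 and 0) the counts were 22 and 4 by DESeq2, 6 and 1 with library totals, and 0 to 122 and 0 to 4 leaving out 1 retina, the upper ends without wildtype dox 3, and the cause was not tested. The interaction gave 48 to 90 higher and 90 to 190 lower leaving out 1 retina. With library totals Pde6a, Pde6b and Gfap turned to 0.004, 0.003 and 0.051. Leaving out 1 retina, Gfap ran from -0.26 to 0.14, Tpm2 from -1.07 to 0.61 and Abi3bp from -0.60 to 0.52. Same-numbered dox and untreated mice did not deviate together (correlations -0.11, -0.25 and -0.02 over 14885 genes). Unlike-numbered mice ran from -0.15 to 0.25. With 3 mice per group these values cannot settle whether the numbers pair the samples. A fit with the mouse number as a replicate block gave 68 higher and 122 lower in PRDM13-OE retinas, 19 and 2 in wildtype retinas and 73 and 107 for the interaction. Depth limits the many rises with under 100 counts per library, whose sizes are imprecise.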

Other observations

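The insert lies at Rosa26, and both genes beside it were measured. Gt(ROSA)26Sor, the noncoding RNA of the locus (chr6:113043843-113054294, minus strand, GRCm39), had 152, 161 and 167 counts in untreated and 277, 333 and 276 counts in dox-treated PRDM13-OE retinas, a log2 fold change of 0.77 (SE 0.12, adjusted p = 0.00160, edgeR's quasi-likelihood test), short of the fold threshold. In wildtype retinas the same contrast gave -0.15, and the difference between genotypes was 0.92 (adjusted p = 0.00430). Setd5, which starts on the other strand next to it (chr6:113054326-113130396), was at 0.30 (adjusted p = 0.0353). In this transcript the untreated retina labelled 1, with 152 counts, did not stand apart from the other untreated PRDM13-OE retinas, unlike in Gm13394. Whether this transcript tells untreated carriers from wildtype mice was not tested.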
